A study of Mus musculus with 30 samples.

Results

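The insertion-rich windows of the mouse autosomes were 241 of the 2412 windows of 1 Mb that held a vector insertion site in at least 1 liver. The windows were chosen by measured values. Sites in each window were expressed per 10000 autosomal sites of a liver (the density used throughout), averaged within each of the 2 vector groups, and the group means were averaged. The highest 10% of windows were taken, so that their high density is a description and not a finding.

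The sites came from livers of Fah KO mice, which lack the last enzyme of tyrosine breakdown and model tyrosinemia type I (TT1). All animals received a transposon gene therapy vector in vivo, 17 of the PB (piggyBac) system and 13 of the SB (Sleeping Beauty) system, and liver DNA was taken when monitoring ended. The labels give no age, sex, dose or strain, and no untreated liver was analysed here. Each liver was 1 library made by streptavidin-based enrichment sequencing (SBE-seq), in which junctions of vector and genome are amplified with a biotinylated primer. Autosomal sites numbered 15780 to 119816 in PB livers and 4670 to 115635 in SB livers. The smallest library was SB liver 13, in which 1 site is worth 2.14 per 10000, so that its values are coarse.

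PiggyBac and Sleeping Beauty are cut-and-paste DNA transposons. Their transposases cut the vector out of a plasmid and join it to a short genomic target, TTAA for PB and TA for SB. PB is known to insert more often near transcription start sites and in open, active chromatin, whereas SB is known for a more even spread. In livers of Fah-deficient mice, corrected hepatocytes can outgrow uncorrected ones, so that the sites recovered at the end are those of cells that persisted.

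The set ended at an average density of 7.26, against 3.86 for the median window. The last 3 windows inside it were at 59 to 60 Mb of chromosome 10 (PB 7.75, SB 6.78), 127 to 128 Mb of chromosome 7 (PB 7.32, SB 7.20) and 83 to 84 Mb of chromosome 11 (PB 7.46, SB 7.06). The first 3 outside were at 75 to 76 Mb of chromosome 10 (PB 7.50, SB 7.01), 111 to 112 Mb of chromosome 10 (PB 8.31, SB 6.19) and 17 to 18 Mb of chromosome 16 (PB 6.87, SB 7.60). These windows on each side of the boundary had nearly the same average.

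A window was called dense in a system when it lay in the highest 10% of windows by that system's own mean. By this measure 161 of the 241 windows were dense in both systems, 54 in PB only and 25 in SB only. The remaining window, at 30 to 31 Mb of chromosome 17, was dense in neither (PB 7.88 ± 1.38, SD, n = 17; SB 6.66 ± 1.05, SD, n = 13). PB densities varied more between windows than SB densities, with a coefficient of variation over all windows of 0.653 against 0.453, so the average of both systems leans towards windows that are high in PB. The PB mean was above the SB mean in 223 of the 241 windows, a number that this leaning helps to set. When the windows were ranked within each system and the ranks averaged, 224 of the 241 windows stayed in the set.

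**Figure D1:**
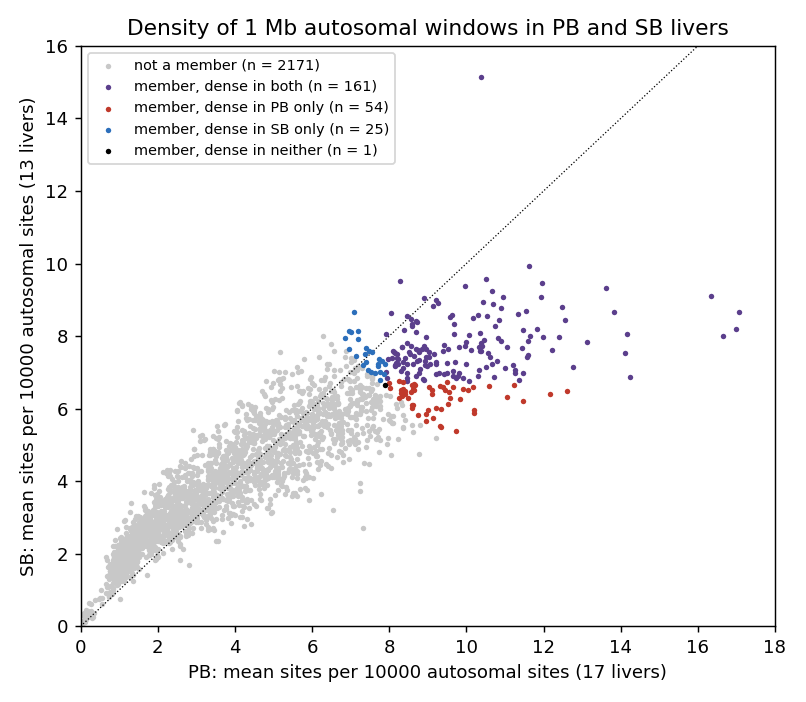
Each point is an autosomal 1 Mb window, with its mean density (sites per 10000 autosomal sites) over 17 PB livers on the x axis and over 13 SB livers on the y axis. Colours give the 161 windows dense in both systems, 54 in PB only, 25 in SB only and 1 in neither, grey points are the other 2171 windows and the dotted line marks equal densities. Most coloured points lie to the right of the line, and a single window on chromosome 11 reaches 15.1 in SB.

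The windows held 23.1% ± 0.547 (SD, n = 17) of the autosomal sites of a PB liver, with a range of 22.3% to 24.1%. They held 17.9% ± 0.995 (SD, n = 13) of those of an SB liver, with a range of 16.2% to 19.5%. No SB liver reached the lowest PB liver. These shares follow in part from the choice of windows and carry no test.

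The difference between the systems in a window was not used by the rule and was tested with limma-voom over all 2407 windows that averaged 1 site or more per liver, with Benjamini-Hochberg adjusted p under 0.05 as the threshold. In 186 of the 241 windows PB was higher (77.2%), against 20.3% of all windows tested. In 3 of them SB was higher (1.24%), against 41.0% of all windows tested. The median log2 difference (PB minus SB) was 0.32 in the 241 windows and -0.16 over all tested windows. Because the choice leans towards PB, these counts describe the set and do not support a preference. With the differences centred on the median window, PB was higher in 221 and SB in 1 of the 241, against 32.8% and 25.5% of all windows. The classes below are set by the same livers' means that enter the difference, so their counts restate the classes and test nothing. All 54 windows dense in PB only passed towards PB, with a median of 0.52. Of the 161 dense in both, 127 passed towards PB, 1 towards SB and 33 did not pass, with a median of 0.30. Of the 25 dense in SB only, 4 passed towards PB, 2 towards SB and 19 did not pass, with a median of 0.01. Most windows dense in SB only were so by their rank within each system, with no higher SB density called.

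Leaving out every position found in more than 1 liver reduced the windows called higher in PB from 186 to 55 and raised those called higher in SB from 3 to 9. The shares over all windows under this setting are not given here, so these counts have no background beside them. Among 62 of the windows described below, it ended 19 calls and turned the sign of 14 differences, the most of any alternative run on them. That step removes more PB than SB sites. In the 241 windows, 50.4% ± 1.65 (SD, n = 17) of a PB liver's sites and 5.91% ± 0.230 (SD, n = 13) of an SB liver's sites shared their position with another liver of the group.

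The densest window of all was at 87 to 88 Mb of chromosome 5. It covers genes of the Ugt2b cluster, among them Ugt2b1, Ugt2b5 and Ugt2b36, and Ugt2a3, enzymes of the endoplasmic reticulum that attach glucuronic acid to steroids and drugs. The gene table at hand describes another assembly than the sites (GRCm38.p6 against GRCm39). Here and below, genes are therefore placed in windows from general knowledge of the mouse map, as background, and were not counted. PB livers ranged from 12.2 through a median of 17.4 to 19.2, and SB livers from 4.28 through 8.39 to 12.5. The lowest PB liver lay just below the highest SB liver, and the other 16 PB livers lay above every SB liver. The log2 difference was 0.94 (SE 0.08, limma-voom adjusted p = 5.4e-21). The shortest stretch that held 50% of the sites, called the core stretch below, was computed with livers weighted equally within a group and the groups weighted equally. In this window it was chr5:87033682-87404174 (GRCm39). It covered 370 kb near the start of the window.

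The window at 3 to 4 Mb of chromosome 11, which includes Sfi1, a gene for a centrosomal protein, ranked second and was the SB extreme. SB livers ranged from 12 through 14.4 to 21.4, PB livers from 7.64 through 9.89 to 13, and the groups overlapped. The log2 difference was -0.55 (SE 0.07, limma-voom adjusted p = 3.7e-10). Its core stretch covered 58.9 kb, at chr11:3090731-3149597 near the start of the assembled chromosome, and the stretch was short in PB (61.2 kb) and in SB (57.4 kb). In the 100 kb bin chr11:3100001-3200000 lay 40.6% of the PB sites and 49.2% of the SB sites of the window. Positions were reused in more than 1 liver for 31.9% of its SB sites, the highest value among the 241 windows, whose median was 5.51%. The share was 62.8% for its PB sites, against a median of 49.7%. The part of sequence copy number or of mapping in this window was not tested.

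Ranks 3 to 5 were held by windows in which every PB liver lay above every SB liver. At 86 to 87 Mb of chromosome 11, which holds Vmp1, a membrane protein needed for autophagy, PB livers ran from 14.3 through 16.5 to 19.5 and SB livers from 6.42 through 9.07 to 11.6 (log2 difference 0.80, SE 0.07, limma-voom adjusted p = 4.5e-18). At 21 to 22 Mb of chromosome 14, the place of Adk, the kinase that clears adenosine and is abundant in hepatocytes, PB livers ran from 13.9 through 16.7 to 20.3 and SB livers from 4.28 through 8.40 to 10.1 (log2 difference 1.02, SE 0.07, adjusted p = 1.2e-24). At 150 to 151 Mb of chromosome 4, with Errfi1, a feedback inhibitor of the EGF receptor, and Rere, a nuclear receptor coregulator, PB livers ran from 14.1 through 16.5 to 19.7 and SB livers from 4.28 through 8.56 to 10.2 (log2 difference 0.98, SE 0.08, adjusted p = 1.6e-22). In all 3 the PB livers were high as a group and no single liver set the mean. Complete separation of this kind, with PB above SB, was seen in 18 of the 241 windows (7.47%) and in 0.829% of all 2412 windows. High PB values helped to choose the windows, so this share describes the set and supports no preference.

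The windows of ranks 6 to 10 followed. At 29 to 30 Mb of chromosome 19, with Jak2, the kinase behind growth hormone and cytokine receptors, PB livers ran from 11.1 through 13.6 to 17.9, and 12 SB livers from 7.74 to 11.7. SB liver 13 was listed with 0 sites there. At 106 to 107 Mb of chromosome 11, with Smurf2, a ubiquitin ligase, and Ern1, a sensor of endoplasmic reticulum stress, PB averaged 13.8 ± 1.73 (SD, n = 17) and SB 8.67 ± 1.81 (SD, n = 13). At 92 to 93 Mb of chromosome 5, with Scarb2, a lysosomal membrane protein, every PB liver (11.7 to 19) was above every SB liver (2.14 to 10.0). At 41 to 42 Mb of chromosome 8, with Fgl1, a hepatocyte-secreted protein, PB averaged 14.1 ± 2.23 (SD, n = 17) and SB 7.54 ± 1.70 (SD, n = 13). All 4 passed the test towards PB, and the calls at 29 Mb of chromosome 19 and 92 Mb of chromosome 5 ended without positions found in several livers. The window at 35 to 36 Mb of chromosome 18 did not (log2 difference 0.16, SE 0.07, limma-voom adjusted p = 0.051). Its PB livers ran from 8.51 through 11.7 to 17.7 and its SB livers from 7.61 through 10.2 to 11.8, the closest groups among the 10. It passed towards PB without SB liver 13, after centring, with a support of at least 10, with limma-trend, with TMM factors and with edgeR. Without positions found in several livers its difference turned to -0.0071.

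**Figure D2:**
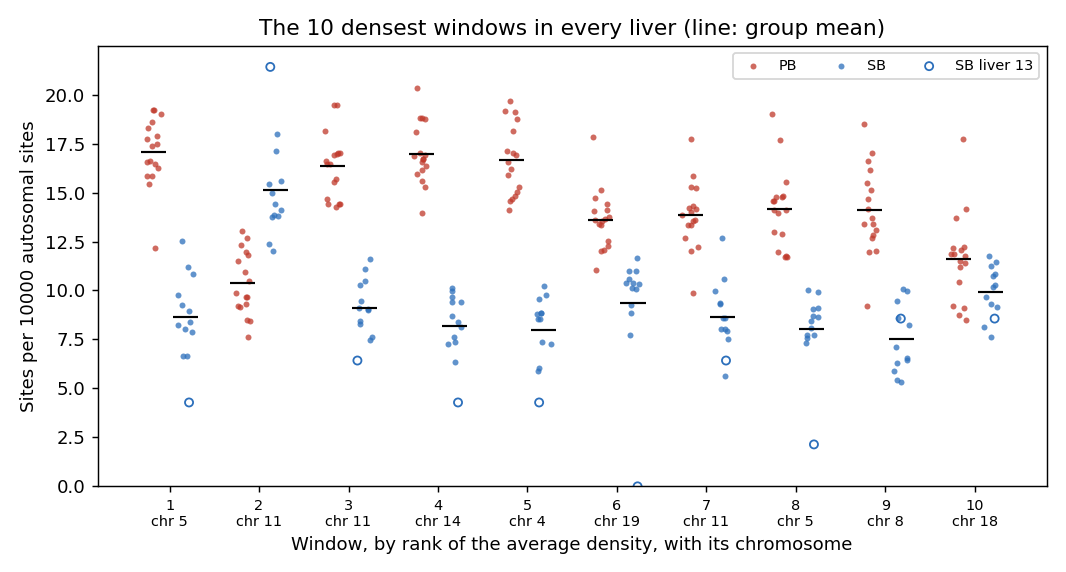
Density in every liver (y axis, sites per 10000 autosomal sites) for the 10 densest windows, ordered by rank and marked with their chromosome on the x axis. Each point is a liver (17 PB, 13 SB), black lines are group means and open circles are SB liver 13, the smallest library. PB livers lie above SB livers in most windows, whereas SB livers are the higher group in the window of rank 2 on chromosome 11.

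The window with the largest log2 difference was dense in PB only. It lies at 97 to 98 Mb of chromosome 4 and holds Nfia, a transcription factor of the nuclear factor I family. PB livers ran from 10.5 through 12.5 to 15.7 and SB livers from 4.12 through 6.28 to 10.7, the last being SB liver 13 (log2 difference 1.05, SE 0.08, limma-voom adjusted p = 3.5e-22). Next in the order of differences, after the Adk window, came 43 to 44 Mb of chromosome 16, dense in both systems. It holds part of Zbtb20, a zinc finger repressor known for silencing the fetal gene Afp in the adult liver. Its PB livers (11.8 to 16.4) all lay above its SB livers (4.28 to 9.40), with a log2 difference of 1.00 (SE 0.08, adjusted p = 1.6e-22). The Errfi1 and Rere window, the Fgl1 window (0.96) and the Ugt2b window completed the largest 6.

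Other windows dense in PB only included enzyme and transporter loci. At 103 to 104 Mb of chromosome 2, with Cat, the gene for the peroxide-degrading enzyme catalase, PB was 12.2 ± 1.46 (SD, n = 17) and SB 6.41 ± 0.957 (SD, n = 13). At 4 to 5 Mb of chromosome 13, with aldo-keto reductase genes such as Akr1c6, PB was 11.5 ± 1.84 (SD, n = 17) and SB 6.22 ± 1.21 (SD, n = 13). At 96 to 97 Mb of chromosome 15, with Slc38a4, an amino acid transporter of the liver, PB was 11.2 ± 1.28 (SD, n = 17) and SB 6.64 ± 0.935 (SD, n = 13). The log2 differences of these 3 windows were 0.87, 0.87 and 0.73, and all passed the test. Their class and their PB density come from the same livers, so passing restates the choice and supports no preference. Their SB densities were below 6.76, the lowest value in the SB top 10%, and above the SB median over all windows of 3.97.

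The windows dense in SB only showed smaller differences. Those named first were chosen by their SB density, which also enters the difference. The densest in SB was at 78 to 79 Mb of chromosome 11, with Vtn, the gene for the plasma protein vitronectin. SB livers ran from 6.81 through 8.23 to 12.8 and PB livers from 4.06 through 6.48 to 11.7, with wide overlap (log2 difference -0.31, SE 0.08, limma-voom adjusted p = 0.00068). The next was at 126 to 127 Mb of chromosome 7, with the sulfotransferase gene Sult1a1. It had SB 8.15 ± 1.63 (SD, n = 13) and PB 6.96 ± 1.39 (SD, n = 17). Its log2 difference of -0.18 passed narrowly (SE 0.08, limma-voom adjusted p = 0.042). In both windows the highest SB value, 12.8, was that of SB liver 13, and SB livers 1 to 12 reached 10.7 and 9.06. Both calls ended when differences were centred on the median window. The first also ended without positions found in several livers (log2 difference -0.21), and the second with TMM factors, edgeR, limma-trend and the replicate block. At 105 to 106 Mb of chromosome 8 (SB 8.15, PB 7.20) and at 32 to 33 Mb of chromosome 5 (SB 8.11, PB 7.02) the difference did not pass. The 4 windows dense in SB only that passed towards PB had log2 differences of only 0.18 to 0.20. They lay at 107 to 108 Mb of chromosome 8, 122 to 123 Mb of chromosome 3, 55 to 56 Mb of chromosome 9 and 24 to 25 Mb of chromosome 13. All 4 calls ended with limma-trend and with a support of at least 10, and 3 of them, all but that of chromosome 9, with the replicate block. Without positions found in several livers none of the 4 passed.

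Loci of secreted plasma proteins were found in every class dense in a system. The window of Alb and Afp, the adult and fetal albumins, at 90 to 91 Mb of chromosome 5 was dense in both. Its PB livers ran from 9.24 through 12.6 to 15.1 and its SB livers from 6.29 through 7.52 to 9.10, without overlap (log2 difference 0.70, SE 0.07, limma-voom adjusted p = 2.3e-14). Its core stretch was chr5:90419962-90654375. Windows of Serpinc1 (antithrombin, chromosome 1, 160 to 161 Mb, PB 10.3, SB 8.59), Hc (complement C5, chromosome 2, 34 to 35 Mb, PB 10.4, SB 7.60) and the Serpina1 genes (antitrypsins, chromosome 12, 103 to 104 Mb, PB 8.86, SB 7.65) were also dense in both and passed towards PB. The window of F2 (prothrombin, chromosome 2, 91 to 92 Mb) had a higher SB mean (8.63 against 8.04) that did not pass the test. The windows of Ahsg, Fetub, Hrg and Kng1, a row of plasma proteins on chromosome 16 (22 to 23 Mb, PB 9.0, SB 5.96), of Itih3 and Itih4 (chromosome 14, 30 to 31 Mb, PB 8.65, SB 6.68) and of F11 and Klkb1 (contact-phase proteases, chromosome 8, 45 to 46 Mb, PB 9.20, SB 6.01) were dense in PB only. Without positions found in several livers, the calls of the Serpinc1, Hc, Itih and Ahsg windows ended and the Serpina1 difference turned to -0.15. The Serpinc1 and Serpina1 calls also ended with limma-trend, and the Serpinc1 call with a support of at least 10.

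Loci of drug and steroid metabolism gave a different picture from window to window. The Cyp3a11 window at 145 to 146 Mb of chromosome 5 was dense in both, with PB 10.5 ± 2.50 (SD, n = 17) and SB 9.58 ± 2.46 (SD, n = 13), and did not pass (limma-voom adjusted p = 0.051). It passed towards PB without SB liver 13, with livers 1 to 12, after centring, with TMM factors and with edgeR, and turned to -0.056 without positions found in several livers. The Cyp2c genes of chromosome 19 spread over a pair of adjoining windows. From 39 to 40 Mb, PB was 8.89 ± 1.33 (SD, n = 17) and SB 9.05 ± 1.08 (SD, n = 13), whereas from 40 to 41 Mb they were 10.3 ± 1.65 and 7.69 ± 1.11. The first did not pass. Its fitted log2 difference of 0.05 (SE 0.07) and its means point opposite ways, and the fit weights livers by their depth whereas the means do not. It passed towards PB after centring. The second passed towards PB (0.47, SE 0.08, limma-voom adjusted p = 7.8e-08), a call that ended without positions found in several livers. The Dpyd window (pyrimidine breakdown, chromosome 3, 118 to 119 Mb) ranked 11 with PB 12 and SB 9.45. The windows of Cyp2e1 (chromosome 7, 140 to 141 Mb, PB 7.38, SB 7.51) and Cyp2d9 (chromosome 15, 82 to 83 Mb, PB 7.47, SB 7.60) were dense in SB only, and neither passed. Both passed towards SB without positions found in several livers, and both fitted differences turned positive with TMM factors. The Cyp2b10 window (chromosome 7, 25 to 26 Mb, PB 8.16, SB 7.20) was dense in both.

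The windows also held loci of amino acid and sugar metabolism, including steps of the pathway that is interrupted in these mice. Hpd (chromosome 5, 123 to 124 Mb) and Hgd (chromosome 16, 37 to 38 Mb) encode enzymes upstream of Fah in tyrosine breakdown. In the Hpd window PB livers ran from 6.92 through 8.60 to 10.2 and SB livers from 5.92 through 8.35 to 12.8, and the difference did not pass (log2 0.08, SE 0.08). It passed towards PB after centring, with TMM factors and with edgeR, and turned to -0.19 without positions found in several livers. The Hgd window (PB 11, SB 7.70, log2 0.43, SE 0.08) passed towards PB. The window of Fah itself (chromosome 7, 84 to 85 Mb) was no member and ranked 1115, with PB 3.98 ± 1.11 (SD, n = 17) and SB 4.28 ± 1.59 (SD, n = 13). Other windows in the set were those of Cps1, the entry enzyme of the urea cycle (chromosome 1, 67 to 68 Mb), Pcx, pyruvate carboxylase (chromosome 19, 4 to 5 Mb, PB 12.5, SB 8.44), and G6pc, the last enzyme of glucose release (chromosome 11, 101 to 102 Mb, PB 9.38, SB 7.58). The Bhmt and Bhmt2 window, betaine and homocysteine metabolism (chromosome 13, 93 to 94 Mb, PB 8.59, SB 6.66), and the Hal window, histidine breakdown (chromosome 10, 93 to 94 Mb, PB 11.1, SB 6.32), were dense in PB only. Without positions found in several livers the Pcx call ended and the G6pc difference turned to -0.022.

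Lipid, transport and regulator loci were present as well. Apob, the scaffold of liver lipoproteins (chromosome 12, 8 to 9 Mb), had PB 9.92 and SB 6.83. Lipc, hepatic lipase (chromosome 9, 70 to 71 Mb), had PB 10.7 and SB 8.88, and Fasn, fatty acid synthase (chromosome 11, 120 to 121 Mb), had PB 8.51 and SB 7.57. The Acaca window (chromosome 11, 84 to 85 Mb, PB 7.72, SB 7.22) was dense in SB only. Among transporters and receptors, the window of Abcc2 and Got1 (chromosome 19, 43 to 44 Mb) had PB 11.5 and SB 6.99 with no overlap of the livers. The organic anion transporters Slco1a1 and Slco1b2 (chromosome 6, 141 to 142 Mb) had PB 10.1 and SB 8.04. The window of Ghr, the growth hormone receptor (chromosome 15, 3 to 4 Mb), had PB 10.6 and SB 6.62. Windows of regulators were those of Tcf7l2 (chromosome 19, 55 to 56 Mb, PB 10.1, SB 6.77), Bcl6 (chromosome 16, 23 to 24 Mb, PB 10.0, SB 7.85), Onecut1 (chromosome 9, 74 to 75 Mb, PB 9.03, SB 7.43) and Cebpb (chromosome 2, 167 to 168 Mb, PB 8.31, SB 6.43). Of the windows of this paragraph, all but those of Fasn and Acaca passed towards PB. Without positions found in several livers the Ghr call alone was kept, and the difference of the Slco window turned to -0.0067.

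Not every well-known liver locus lay in the set. The window of the fibrinogen genes Fga, Fgb and Fgg (chromosome 3, 82 to 83 Mb) ranked 1182, with PB 4.49 ± 0.670 (SD, n = 17) and SB 3.36 ± 1.17 (SD, n = 13). The Apoa1 cluster (chromosome 9, 46 to 47 Mb) ranked 958 and Apoe (chromosome 7, 19 to 20 Mb) ranked 843. A window in the region of the major urinary protein genes (chromosome 4, 60 to 61 Mb) ranked 1812. Not every 100 kb bin of that window held a site, and the part of mapping was not tested. Ttr (chromosome 18, 20 to 21 Mb) ranked 295 and Arg1 (chromosome 10, 24 to 25 Mb) ranked 334, closer to the boundary. These windows were picked by hand as well-known liver loci and are examples only. Within the fibrinogen window, 46.7% of the PB sites lay in the 100 kb bin chr3:82900001-83000000.

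Within the 241 windows, the sites were usually spread widely. The core stretch had a median of 377 kb (range 58.9 to 496 kb), against 346 kb in the 2149 other windows with at least 100 sites. It was under 200 kb in 4 of the windows (1.66%) and in 8.79% of the others. Windows of the set held more sites (median 1766 against 744 records), and the part of site number in this difference was not tested.

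PB sites were packed more tightly than SB sites. The core stretch of the PB sites alone had a median of 332 kb and that of the SB sites one of 415 kb, and the PB stretch was the shorter in 221 of the 241 windows (91.7%). Among the other windows it was shorter in 82.3%. The fullest 100 kb bin of a window held a median of 21.4% of its PB sites and 14.7% of its SB sites. The windows dense in PB only had a median PB stretch of 260 kb, those dense in both 343 kb and those dense in SB only 368 kb.

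**Figure D3:**
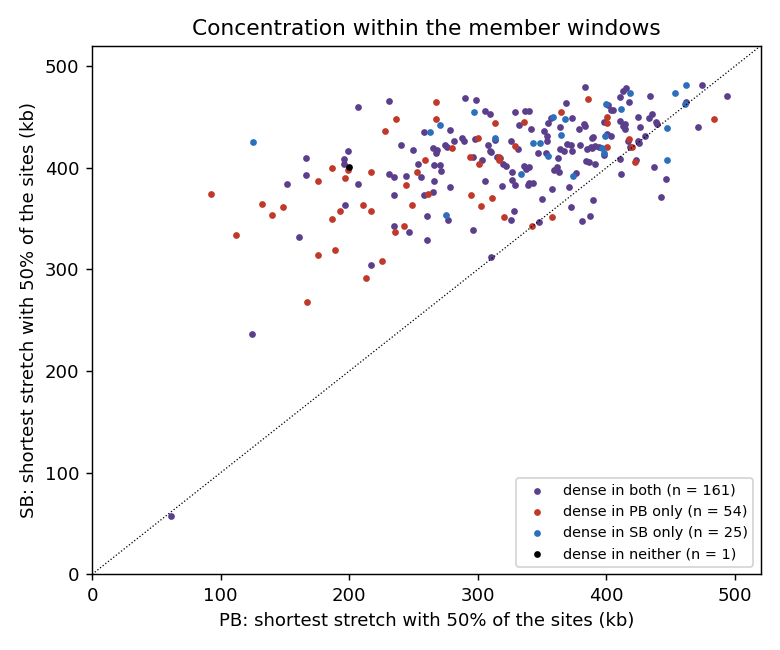
Each point is 1 of the 241 windows, with the length of the shortest stretch holding 50% of its PB sites on the x axis and of its SB sites on the y axis (both in kb). Colours give the class of the window and the dotted line marks equal lengths. In 221 windows the PB stretch is the shorter, and the isolated point at the lower left is the window at the start of chromosome 11.

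After the Sfi1 window, the shortest core stretches lay in windows of Cps1, Ugt1a1, Rbm47 and Nfia. In the Cps1 window the core stretch was chr1:67115890-67259435 (144 kb). This window was dense in PB only (PB 9.33 ± 1.95, SD, n = 17; SB 5.50 ± 1.47, SD, n = 13). The PB stretch was 92.4 kb and the SB stretch 374 kb. The 100 kb bin chr1:67100001-67200000 held 48.5% of its PB sites and 15.7% of its SB sites. In the window of Ugt1a1, the enzyme that conjugates bilirubin, it was chr1:88065788-88218656 (153 kb), with a PB stretch of 124 kb and an SB stretch of 236 kb. At 66 to 67 Mb of chromosome 5, with Rbm47, an RNA-binding protein, the stretch was chr5:66159579-66350303 (191 kb), and every PB liver (8.74 to 12.7) lay above every SB liver (4.23 to 8.35). In the Nfia window it was chr4:97692396-97893747 (201 kb), with 148 kb for PB and 362 kb for SB. The longest stretches were 496 kb in the window of Acsl1, an acyl-CoA synthetase (chromosome 8, 46 to 47 Mb), and 487 kb both at 100 to 101 Mb of chromosome 7 and in the window of Rbp4, the retinol carrier (chromosome 19, 38 to 39 Mb).

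**Figure D4:**
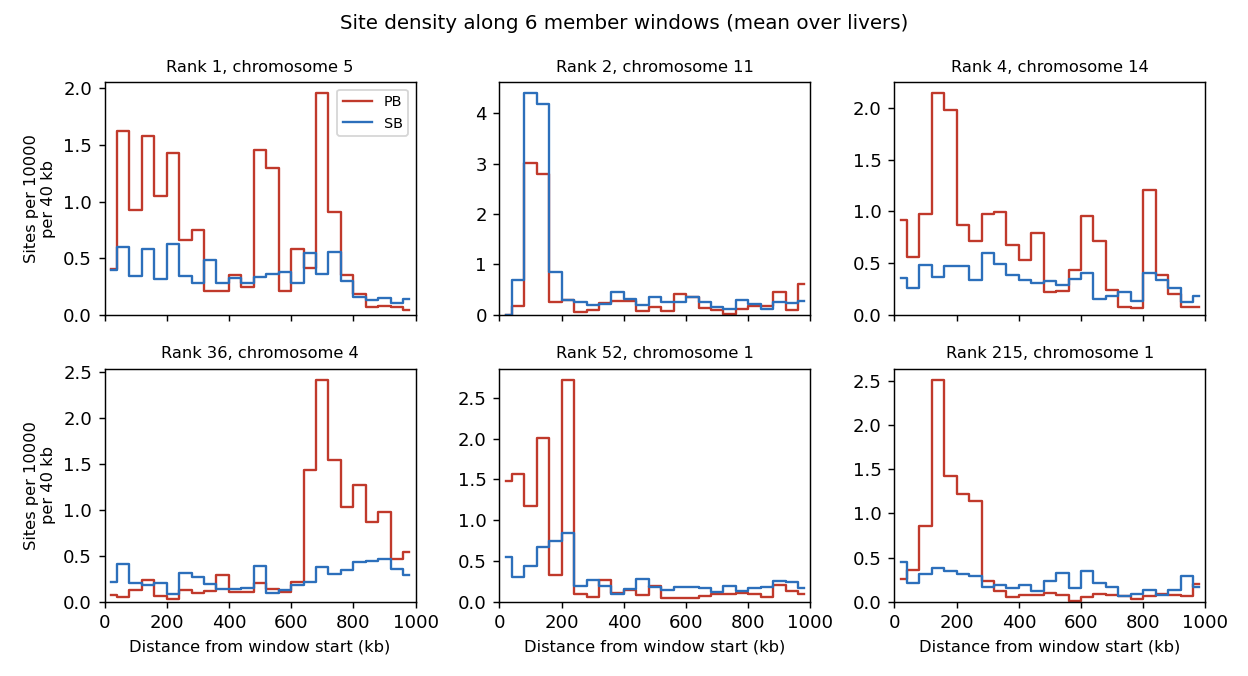
Mean density per 40 kb (y axis, sites per 10000 autosomal sites) along 6 of the windows, against the distance from the window start in kb (x axis), for PB and SB. The windows are those of the Ugt2b genes (rank 1), Sfi1 (rank 2), Adk (rank 4), Nfia (rank 36), Ugt1a1 (rank 52) and Cps1 (rank 215). PB is uneven along all 6 windows, with separate peaks in some and a main block in others. SB shows a peak of comparable height only in the window of rank 2.

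The same windows were not always filled in the same place by both systems. The fullest 100 kb bin was the same bin in PB and SB in 60 of the 241 windows (24.9%) and in 40.8% of the others. The core stretches of PB and SB shared over 50% of the shorter one in 181 windows (75.1%, against 81.3% of the others) and did not overlap in 21 (8.71%, against 7.54%). The rank correlation of the PB and SB profiles over the 10 bins of a window had a median of 0.59, as a description (range -0.42 to 0.95). The median of the other windows was 0.64. The correlation was below 0 in 13 windows (5.39%), near the share of the others (5.82%). The lowest correlation in the set was that of the Sult1a1 window.

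Differences inside the windows were tested in bins of 100 kb. Limma-voom over 19930 autosomal bins averaging 1 site or more per liver called 642 of the 2402 bins of these windows higher in PB (26.7%), against 10.6% of all bins tested. It called 350 higher in SB (14.6%), against 15.5% of all bins, so the SB share was near the background. Because the choice of windows leans towards PB, these bin counts describe the set and do not support a preference. In 178 of the 241 windows (73.9%) at least 1 bin was higher in PB and at least 1 other higher in SB, against 701 of 2136 other windows with a tested bin (32.8%). Of the 52 windows without a call for the whole window, 51 contained a called bin (98.1%), against 710 of 863 such windows elsewhere (82.3%). The bins of these windows hold more sites, and the part of site number in these shares was not tested. Without positions found in more than 1 liver, 108 bins were higher in PB and 17 in SB. With bins required to average 5 sites or more per liver, 681 were higher in PB and 44 in SB. Centring on the median bin gave 961 higher in PB and left 123 higher in SB. Shares over all bins are not given here for these alternatives, so their counts have no background beside them.

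The bins with the largest differences were well filled in PB. They were not all sparse in SB, since the bin of the Cps1 window was also the fullest SB bin of that window. In the bin chr4:97600001-97700000 of the Nfia window, PB was 2.74 ± 0.686 (SD, n = 17) and SB 0.591 ± 0.401 (SD, n = 13), a log2 difference of 2.44 (SE 0.27, limma-voom adjusted p = 1.9e-12). In chr5:66200001-66300000 of the Rbm47 window, PB was 4.41 ± 1.06 (SD, n = 17) and SB 0.737 ± 0.429 (SD, n = 13), also a log2 difference of 2.44 (SE 0.21, adjusted p = 2.9e-18). The next were chr16:43100001-43200000 in the Zbtb20 window (2.29), chr4:49400001-49500000 (2.26), chr13:4400001-4500000 in the Akr1c6 window (2.23) and chr1:136800001-136900000 (2.19). In the window of the last, at 136 to 137 Mb of chromosome 1, SB liver 13 stood at 27.8 and the other SB livers at 4.59 to 8.86. In chr1:67100001-67200000 of the Cps1 window, PB was 4.52 ± 1.38 (SD, n = 17) and SB 0.864 ± 0.518 (SD, n = 13), a log2 difference of 2.19. In chr19:43700001-43800000 of the Abcc2 window, PB was 4.13 ± 0.906 (SD, n = 17) and SB 0.986 ± 0.435 (SD, n = 13), a log2 difference of 2.12. In the opposite direction the bins were thinly filled in PB. In chr13:24800001-24900000, PB was 0.113 ± 0.163 (SD, n = 17) and SB 0.693 ± 0.511 (SD, n = 13), a log2 difference of -1.90 (SE 0.35, adjusted p = 1e-05).

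The windows were unevenly placed on the chromosomes. On chromosome 19, 17 of 59 windows were in the set (28.8%), all 17 of them dense in both systems. On chromosome 11 it was 23 of 119 (19.3%), of which 17 were dense in both, 2 in PB only and 4 in SB only. The lowest shares were on chromosome 10 (7 of 128, 5.47%) and chromosome 14 (8 of 123, 6.50%). All other autosomes lay between 6.70% and 12.6%.

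**Figure D5:**
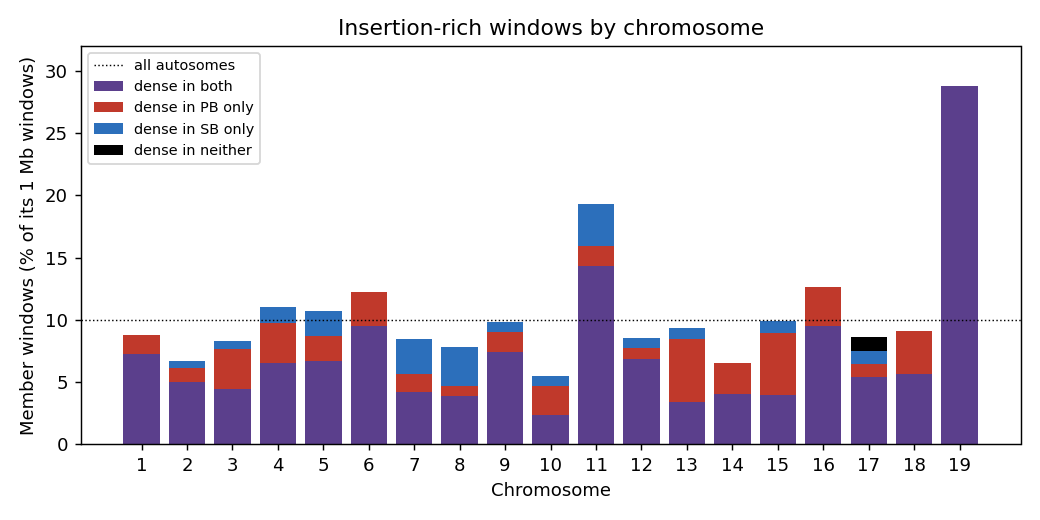
Share of each autosome's 1 Mb windows that belong to the insertion-rich set (y axis, percent), by chromosome (x axis), with the class of the windows in colour. The dotted line is the share over all autosomes. Chromosome 19 stands at 28.8% and chromosome 11 at 19.3%, and the lowest bar is that of chromosome 10 at 5.47%.

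Insertion-rich windows often adjoined one another. Of the 241, 110 touched another window of the set (45.6%), against 14.8% of the other windows, and these 110 formed 42 runs. The longest run, of 6 windows, lay at 36 to 42 Mb of chromosome 19 and covered Rbp4 and the Cyp2c genes, with window means of 8.59 to 10.8 in PB and 6.99 to 9.05 in SB. The next, of 5 windows, lay at 62 to 67 Mb of chromosome 9 (PB 7.94 to 10.9, SB 6.75 to 8.78). Runs of 4 lay at 89 to 93 Mb and 121 to 125 Mb of chromosome 5, 20 to 24 Mb of chromosome 11, 132 to 136 Mb of chromosome 4 and 30 to 34 Mb of chromosome 16. The first of these spans the Alb and Scarb2 windows, and the second the windows of Aldh2, the acetaldehyde-clearing enzyme, and Hpd.

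Single livers shared the set to different degrees. A PB liver had on average 178 ± 13.5 (SD, n = 17) of the 241 windows in its own highest 10%, and an SB liver 144 ± 24.5 (SD, n = 13). The lowest value, 75, was that of SB liver 13, the smallest library, and the other SB livers had 128 to 170. In 44 windows all PB livers had the window in their highest 10%. In 8 windows all SB livers did, namely the windows of Sfi1, Cyp3a11, Vtn and the Cyp2c genes from 39 Mb, and those at 95 to 96 Mb of chromosome 3, 100 to 101 Mb of chromosome 7, 155 to 156 Mb of chromosome 2 and 194 to 195 Mb of chromosome 1. SB livers 1 to 12 had 20 such windows in common, so the coarse values of SB liver 13 narrow this count. The window at 100 to 101 Mb of chromosome 7 was the single one in the highest 10% of all 30 livers, with PB livers from 8.85 through 10.5 to 14.6 and SB livers from 7.22 through 8.44 to 10.7. These livers also chose the windows, so the counts describe their spread.

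Other readouts of the sites differed little between these windows and the other autosomal windows. The deposited number beside each site, taken as its read support, had a mean 1.02 times that of other windows in PB (higher in 17 of 17 livers) and 1.02 times in SB (higher in 11 of 13). SB liver 13 had the highest SB ratio (1.10), and the other SB livers had 0.998 to 1.02. The median of this number was higher in 6 and lower in 3 of the 17 PB livers. It was higher in 5 and lower in 2 of the 13 SB livers. The share of sites on the minus strand was 50.6% ± 0.755 in these windows and 51.0% ± 0.478 elsewhere in PB livers (SD, n = 17; lower in 13 of 17). In SB livers it was 51.1% ± 1.36 and 51.3% ± 0.722 (SD, n = 13; lower in 12 of 13). Sharing of positions differed more. In PB livers 50.4% of sites in these windows and 36.4% ± 1.48 (SD, n = 17) elsewhere had a position found in another PB liver, higher in 17 of 17 livers. In SB livers the shares were 5.91% and 3.55% ± 0.183 (SD, n = 13), higher in 13 of 13. The part of site density in this difference was not tested.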

How the data were processed

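Per the labels' protocols, liver DNA was fragmented, ligated to a linker and enriched by nested PCR with a biotinylated transposon primer. Per the submitters' processing notes, cutadapt, BWA and GRCm39 were used, and no version is given. The deposited file of each liver lists site positions with a strand and a whole number of at least 3, whose meaning is not given in the sources used here and which was taken as read support, so sites below 3 are not seen. A pair of deposited merged tables holds counts of site records over livers 1 to 12 of each group, made by the authors. They matched the liver files and served as a check only.

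Sites on the autosomes were counted in windows of 1 Mb and bins of 100 kb (Python 3.11.15, numpy 2.4.6, pandas 2.3.3) and compared with limma 3.58.1 (voom, total autosomal sites as library size) in R 4.3.3, with edgeR 4.0.16 as an alternative. The members and lists were chosen with earlier results of these data known. Windows named are the 10 densest, those with the largest differences (6 in each direction where as many passed), the 4 densest of each class dense in a single system, the 5 with the shortest and 3 with the longest stretches, those at the boundary, the longest runs, and windows of listed liver genes, of which some are not reported here. Of 97 genes named or considered, all 97 were on the stated chromosome in the RefSeq table of GRCm38.p6, which was used for names only. The labels do not explain the higher liver numbers, and each liver was taken as 1 animal. If libraries shared an animal, p-values would measure technical spread. No pairing of the groups by liver number was seen: the correlation of deviations of same-numbered livers ran from -0.05 to 0.07 over 13 pairs. The check reads site densities only, so it cannot exclude pairing. No sequence is printed because no genome of the files' build was used here.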

Additional observations from a re-analysis of the deposited data

How the results depend on the processing

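Alternatives were run on the differences of 62 of the windows named. Of their values, 649 kept their direction and side of the threshold, 25 newly passed, 44 no longer passed and 26 changed sign. When positions found in several livers were left out, the log2 differences (PB minus SB) turned to -0.0071 at 35 Mb of chromosome 18, -0.083 and -0.0012 at 38 and 39 Mb of chromosome 19, -0.016 at 88 Mb of chromosome 1, -0.0043 and -0.19 at 100 and 25 Mb of chromosome 7, -0.022 and -0.34 at 101 and 120 Mb of chromosome 11, -0.15 at 103 Mb of chromosome 12, -0.093 at 24 Mb of chromosome 13, -0.19 and -0.056 at 123 and 145 Mb of chromosome 5, -0.0067 at 141 Mb of chromosome 6 and -0.056 at 107 Mb of chromosome 8. Centred on the median window they turned to 0.0024 at 32 Mb of chromosome 5, 0.036 at 105 Mb of chromosome 8, 0.14 at 82 Mb of chromosome 15, 0.016 at 91 Mb of chromosome 2 and 0.10 at 140 Mb of chromosome 7. With edgeR and with TMM factors they turned to 0.094 and 0.089 at 82 Mb of chromosome 15 and to 0.059 and 0.049 at 140 Mb of chromosome 7. With livers 1 to 12 they turned to -0.0013 at 120 Mb of chromosome 11 and -0.015 at 25 Mb of chromosome 7, and with limma-trend to -0.034 at 39 Mb of chromosome 19. The cause was not tested. Without those positions, the windows dense in SB only numbered 40, the windows called higher numbered 55 in PB and 9 in SB, and the 100 kb bins called higher 108 in PB and 17 in SB. This setting removes more PB than SB sites, as more PB sites shared a position with another liver (50.4% against 5.91% in the 241 windows). Centring left 1 window and 123 bins higher in SB, and gave 221 windows and 961 bins higher in PB. Requiring a mean of at least 5 sites per liver left 44 bins higher in SB and gave 681 higher in PB. Fewer bins are tested under this setting, and the part of that was not tested. Merging sites within 10 bp gave 6 windows higher in SB, and a support of at least 10 gave 5. With the highest 5% of each system as the measure, 65 windows were dense in both and 49 in SB only; with the highest 20%, 7 were dense in PB only and 0 in SB only, which the threshold itself sets. Averaging ranks, an alternative chosen after seeing the data, kept 224 of the 241 windows. A stretch with 80% of the sites had a median of 700.3 kb. The remaining alternatives for these counts stayed within 1.5 times.

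Liver numbers are shared by both groups. Site densities showed no pairing by number, with 0 of the 13 pairs correlated above 0.1, which does not exclude pairing. With the replicate block over livers 1 to 13, PB was higher in 176 windows and SB in 3, and PB in 631 and SB in 419 bins. The block ended 4 of the calls of single windows, at 126 Mb of chromosome 7, 24 Mb of chromosome 13, 122 Mb of chromosome 3 and 107 Mb of chromosome 8, and changed no other of the 62. Without SB liver 13 the windows numbered 189 and 3. SB liver 13, with 4670 autosomal sites, gives coarse values for single windows.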
